A study of Mus musculus with 20 samples.

Results

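Potassium channel subunit genes were taken as all gene symbols of the deposited count tables that consist of Kcn, lower-case letters and a closing number. The rule found 92 genes among the 55367 listed, namely 30 pore-forming voltage-gated (Kv) genes, 15 inward rectifiers (Kir), 14 tandem-pore leak channels (K2P), 8 calcium- or sodium-activated channels, 10 silent Kv modifiers, which form channels only together with other Kv subunits, and 15 accessory subunits. Of these, 59 passed the expression filter applied to all genes and 33 did not. The RNA came from hearts of C57BL/6J mouse pups, an inbred strain, that were kept from birth to postnatal day 4 either in room air, with 21% oxygen, or in hyperoxia, with 100% oxygen, a model of the oxygen therapy given to preterm infants. Left atria and left ventricles were dissected apart and sequenced as bulk tissue, which gave 4 groups of 5 libraries: room-air atrium, hyperoxic atrium, room-air ventricle and hyperoxic ventricle. The nursing dams changed places between the room-air and the hyperoxic litters at intervals of 24 hours, and the series text counts 5 mice in each group. Sex and litter are not in the labels.

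Potassium channels let potassium leave the cardiac myocyte and so set its resting potential and end its action potential. Inward rectifiers hold the resting potential, voltage-gated channels carry the outward currents of repolarization, tandem-pore channels carry background current, and accessory subunits bind pore-forming subunits and alter their gating and traffic to the membrane. Atria and ventricles are known to carry different sets: the acetylcholine-activated channel built from Kcnj3 and Kcnj5 is typical of atrial muscle and of the sinus node, and inward rectifier current is typically denser in ventricular muscle.

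For 67 of the 92 genes RefSeq promoter windows (mouse build GRCm38.p6) were at hand, 42 of them genes that passed the filter. The 250 bases before the annotated start are printed for Kcnj2 and Kcnj5, pore genes whose hyperoxia responses in the atrium and the ventricle had opposite signs, for Kcnj3, the partner of Kcnj5, whose ventricular difference did not pass the test, and for Kcnip2, a ventricle-enriched accessory gene. The windows are, 5′ to 3′ on the gene's strand, chr11:111065914-111066163 (plus strand), chr9:32344345-32344594 (minus strand), chr2:55435720-55435969 (plus strand) and chr19:45816064-45816313 (minus strand), and capitals mark the GC box GGGCGG or its reverse complement CCGCCC.
Kcnj2: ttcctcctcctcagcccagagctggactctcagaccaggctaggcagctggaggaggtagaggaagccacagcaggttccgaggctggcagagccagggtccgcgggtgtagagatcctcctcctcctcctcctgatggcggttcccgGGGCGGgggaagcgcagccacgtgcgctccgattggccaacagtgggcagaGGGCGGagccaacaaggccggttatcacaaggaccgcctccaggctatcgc
Kcnj5: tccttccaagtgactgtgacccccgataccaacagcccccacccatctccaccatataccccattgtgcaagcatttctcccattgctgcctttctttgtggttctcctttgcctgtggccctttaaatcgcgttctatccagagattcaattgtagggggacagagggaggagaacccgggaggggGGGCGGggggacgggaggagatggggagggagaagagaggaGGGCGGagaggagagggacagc
Kcnj3: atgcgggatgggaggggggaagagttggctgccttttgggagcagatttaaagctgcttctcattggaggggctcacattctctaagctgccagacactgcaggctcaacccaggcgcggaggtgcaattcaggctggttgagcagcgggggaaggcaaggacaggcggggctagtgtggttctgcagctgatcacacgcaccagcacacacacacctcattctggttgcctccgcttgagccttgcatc
Kcnip2: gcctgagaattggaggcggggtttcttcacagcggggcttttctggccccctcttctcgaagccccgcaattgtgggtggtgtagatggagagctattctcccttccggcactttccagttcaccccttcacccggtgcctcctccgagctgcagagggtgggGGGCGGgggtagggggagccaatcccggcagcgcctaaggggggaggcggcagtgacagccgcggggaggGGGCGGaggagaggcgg
The windows of Kcnj2, Kcnj5 and Kcnip2 held 2 GC boxes each and that of Kcnj3 none, and GC content was 65.6% for Kcnj2, 58% for Kcnj5, 58.4% for Kcnj3 and 66.8% for Kcnip2. A GC box on either strand stood in 25 of the 60 windows of filtered subunit genes (41.7%) and in 32.7% of all 32851 windows, where a gene can have several windows. The E box CACGTG, which reads the same on both strands, was found in the Kcnj2 window and in 6.02% of all windows. The letters TATAAA or their reverse complement occurred in 12.4% of all windows and in none of the 60. The T-box half-site GGTGTG, searched on both strands, occurred in the Kcnj3 window, in 25.0% of the 60 and in 16.3% of all. None of these motifs overlapped another in the printed windows, and the matches are letters, not measured binding.

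Total counts per library ran from 26510081 to 38244117. The chambers matched their labels: the ventricular light chain Myl2 was at 14326 to 28928 counts per 1000000 (CPM, on TMM-scaled library sizes) in ventricles and at 5.59 to 328 CPM in atria. The highest of these atrial values, 328 CPM, was in room-air atrium 1, against 7.42 to 14.95 CPM in the other room-air atria. All 10 room-air libraries had more reads from 4 Y-linked genes than from Xist, the RNA of the inactive X chromosome, but among hyperoxic libraries only atrium 2 and ventricles 2 and 6 did (termed Y-above-Xist libraries). Sex as read from these genes and oxygen therefore largely cannot be told apart. In hyperoxic atria 2 and 4 and room-air ventricle 4 the levels leaned towards short transcripts: regressed on log2 exon length, each gene's log2 deviation from its chamber mean had a slope of -0.289, -0.283 and -0.220, against -0.069 to 0.133 in the other 17 libraries. Values of single libraries stand in the order of their numbers, which are 1 to 5, or 1, 2, 4, 5 and 6 for hyperoxic ventricles.

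At least 1 CPM on average in some group was reached by 48 of the 92 genes, 22 reached 10 CPM and 10 reached 50 CPM. By group, 45 genes reached 1 CPM in room-air atria, 43 in hyperoxic atria, 37 in room-air ventricles and 40 in hyperoxic ventricles. The 33 genes under the filter had at most 158 counts over all 20 libraries and at most 20 in any library. Among them were the Kv genes Kcna1, Kcna3, Kcna10, Kcnc1, Kcnh4, Kcnh5, Kcnh6, Kcnh8 and Kcnq3, the silent modifiers Kcng3, Kcns1, Kcns2 and Kcnv1, the inward rectifiers Kcnj1, Kcnj6, Kcnj9, Kcnj13 and Kcnj16, the leak channels Kcnk4, Kcnk7, Kcnk9, Kcnk10, Kcnk12, Kcnk15, Kcnk16 and Kcnk18, the sodium-activated Kcnt1, and the accessory genes Kcne2, Kcnip4, Kcnmb2 and Kcnmb3. Of the 33, Kcna10, Kcnk9, Kcnk16 and Kcnk18 had no count in any library. Kcne2, which can pair with the Kcnh2 channel, had the most counts among them.

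Levels of different genes were compared per length, as CPM per kb of exon, with mean ± SD over 5 libraries. In room-air atria the leak channel Kcnk3 stood highest at 41.1 ± 4.33, followed by Kcnh2, the pore of the rapid delayed rectifier, at 39.3 ± 1.68, Kcnj3 at 35.8 ± 2.62, Kcnj5 at 26 ± 0.415 and the ATP-sensitive channel pore Kcnj11 at 24.9 ± 2.04. Kcnk3 and Kcnh2, and likewise Kcnj5 and Kcnj11, lay within the spread of their libraries. In room-air ventricles the accessory gene Kcne1, which slows the gating of Kcnq1 channels, was far above all others at 86.1 ± 16.4 CPM per kb, ahead of the silent modifier Kcng2 at 35.2 ± 5.05 (named after its values were seen) and Kcnk3 at 26.2 ± 6.72. Kcnj8, Kcnip2, Kcnh2, Kcnj11 and Kcna5 followed between 16.8 ± 0.882 and 19.5 ± 1.83, with libraries that overlapped in part. In hyperoxic atria Kcnk3 still ranked first at 26.2 ± 3.88 CPM per kb and Kcnh2 was at 16.6 ± 2.02. In hyperoxic ventricles Kcne1 ranked first at 79.6 ± 7.63, again followed by Kcng2 at 29.6 ± 6.71.

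Summed over all 92 genes, levels per length were 262 ± 11.5 CPM per kb in room-air atria and 161 ± 6.84 in hyperoxic atria, and the libraries of these groups did not overlap. The same sum was 296 ± 25.3 in room-air and 301 ± 16.8 in hyperoxic ventricles, whose libraries overlapped. Inward rectifiers made up 43.3% ± 0.722 (SD, n = 5) of the sum in room-air atria, 40.01% ± 2.12 in hyperoxic atria, 19.5% ± 2.02 in room-air ventricles and 22.5% ± 1.06 in hyperoxic ventricles. Accessory subunits made up 4.0% ± 0.771 and 8.58% ± 0.771 in room-air and hyperoxic atria, against 38.4% ± 3.16 and 36.5% ± 2.77 in the ventricles, where most of it was Kcne1. Pore-forming Kv genes held 23.8% ± 0.711, 19.6% ± 1.66, 18% ± 1.88 and 18.7% ± 1.15 in the same order of groups. These sums and shares are descriptions without a test.

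**Figure D1:**
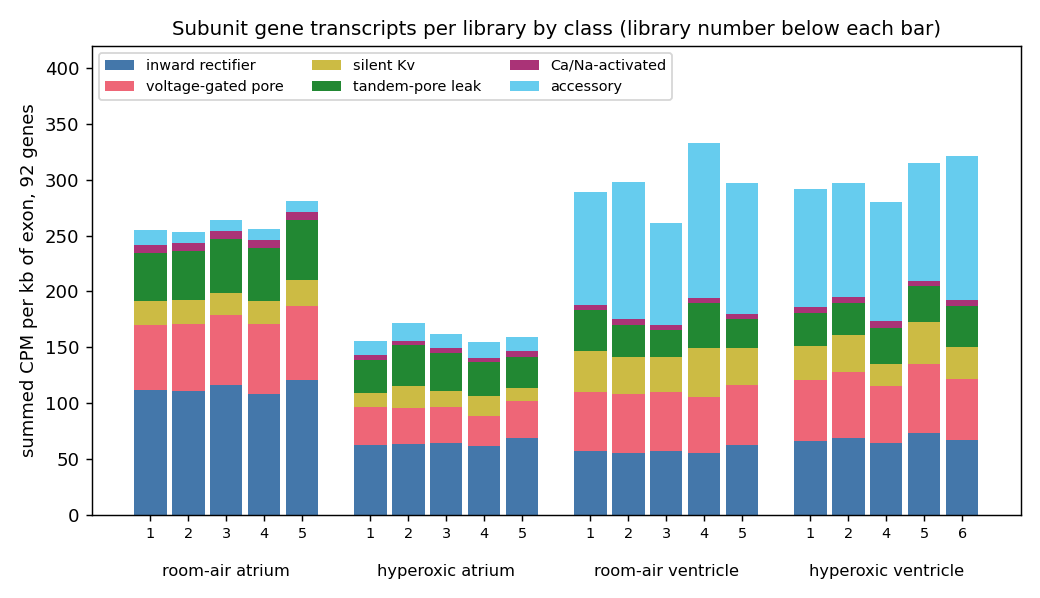
Summed level of the 92 subunit genes in each library (vertical axis, CPM per kb of exon, linear from 0), with bars stacked by class and libraries grouped by chamber and oxygen. Every hyperoxic atrium lies below every room-air atrium, and accessory genes take the largest share in all 10 ventricles.

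In left atria hyperoxia went with lower levels of most of the filtered subunit genes. Of the 59 genes 35 passed the test (edgeR quasi-likelihood, adjusted p under 0.05 over 16598 genes): 31 fell and 4 rose. Among all genes tested 43.9% passed, 24.2% lower and 19.7% higher, against 59.3% of the subunit genes, 52.5% lower and 6.78% higher. The median log2 difference of the 59 was -0.58, against -0.06 over all genes tested. For 28 of the 35 the CPM values of hyperoxic and room-air atria did not overlap at all. Among all genes this held for 5182 of the 7291 that passed, or 31.2% of all genes tested. Falls were found in 7 of 10 inward rectifiers, 12 of 19 Kv genes, 5 of 6 silent modifiers, 4 of 7 calcium- or sodium-activated channels, 2 of 6 leak channels and 1 of 11 accessory genes. In bulk tissue, fewer cells of a type and less RNA per cell cannot be told apart. A model that also held Y-linked level and length slope as covariates called 20 lower and 1 higher, and among Y-above-Xist libraries, where hyperoxic atrium 2 alone stood for its group and was assumed to vary like the other groups, 23 fell and 4 rose.

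The pore genes of the inward rectifier current that holds the resting potential fell together. Kcnj2 (chr11:111066164-111076821, GRCm38, plus strand) was at 51, 44.9, 49.3, 36.5 and 49.2 CPM in the 5 room-air atria and at 21.5, 18, 21.1, 17.7 and 21.9 CPM in the 5 hyperoxic atria. All hyperoxic atria lay below all room-air atria, a 2.3-fold fall (log2 difference -1.20, SE 0.10, adjusted p = 1.0e-08). Kcnj12, which can assemble with Kcnj2, was at 8.98, 9.65, 8.8, 8.46 and 9.1 CPM in room air and 5.64, 4.99, 6.2, 5.65 and 5.99 CPM in hyperoxia, again without overlap (log2 difference -0.66, SE 0.12, adjusted p = 9.2e-05). Another member of that channel family, Kcnj4, went the other way from a low level, from 0.85, 0.353, 0.495, 0.672 and 0.549 CPM to 2.81, 1.5, 1.6, 1.92 and 2.08 CPM (log2 difference 1.76, SE 0.36, adjusted p = 4.5e-04), and its hyperoxic mean of 1.98 ± 0.517 CPM stayed far under that of Kcnj2.

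Both pore genes of the acetylcholine-activated channel fell as well. Kcnj3 (chr2:55435970-55598145, plus strand) was at 174, 174, 196, 185 and 205 CPM in room-air atria and 77, 96.3, 90.1, 108 and 118 CPM in hyperoxic atria (log2 difference -0.93, SE 0.14, adjusted p = 1.9e-05). Kcnj5 (chr9:32314707-32344350, minus strand) was at 118, 122, 123, 122 and 123 CPM and 73.5, 71.4, 68, 68.9 and 77.1 CPM (log2 difference -0.76, SE 0.09, adjusted p = 6.8e-07). The groups did not overlap for either gene, and the falls were 1.91-fold and 1.7-fold. Sinus node and conduction markers, of which 4 of 5 passed the filter, fell in 3 of the 4 in the same libraries, with a summed level of 23.5 to 29.8 CPM in room-air and 6.94 to 10.01 CPM in hyperoxic atria, and their part in these falls was not tested.

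Among ATP-sensitive channels, which open when the energy state of the cell falls, Kcnj11 (chr7:46093953-46100764, minus strand), the pore typical of muscle cells, was at 87.3, 86.4, 88.2, 90.6 and 105 CPM in room-air atria and at 66.9, 72.1, 72.6, 57.7 and 61.1 CPM in hyperoxic atria. Its fall was smaller, 1.38-fold (log2 difference -0.47, SE 0.08, adjusted p = 9.6e-05), and the groups did not overlap. Kcnj8, the pore typical of vascular mural cells, was at 7.37, 9.94, 7.89, 7.58 and 10.5 CPM and 5.16, 6.51, 4.86, 5.62 and 3.96 CPM (log2 difference -0.73, SE 0.12, adjusted p = 6.5e-05). Of 5 pericyte markers 4 fell in the same libraries, with a summed level of 569.6 to 741 CPM in room-air and 189 to 355 CPM in hyperoxic atria, and their part in the Kcnj8 result was not tested. With Y-above-Xist libraries only, Kcnj8 did not pass (log2 difference -0.41, adjusted p = 0.12). The largest fall among inward rectifiers was that of Kcnj15, a channel better known from kidney and stomach, from 83.2, 74.4, 77.2, 54.8 and 62.3 CPM to 29.5, 11.3, 25.5, 14.3 and 25.5 CPM (log2 difference -1.73, SE 0.23, adjusted p = 3.3e-06).

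Of the pore genes of the delayed rectifiers, Kcnh2 (chr5:24319589-24351604, minus strand) was at 177, 188, 192, 198 and 195 CPM in room-air atria and 88.5, 82.6, 83.1, 63.2 and 83.6 CPM in hyperoxic atria. Every room-air atrium was above every hyperoxic atrium, and the fall was 2.37-fold (log2 difference -1.25, SE 0.10, adjusted p = 4.9e-09). Kcnq1 (chr7:143106362-143427042, plus strand), the pore of the slow delayed rectifier, was at 41.5, 37.2, 42.8, 43.9 and 47.7 CPM and 23.3, 30.1, 27, 27.9 and 24.4 CPM (log2 difference -0.68, SE 0.08, adjusted p = 1.3e-06). Kcnq1 shares exonic bases on the opposite strand with Kcnq1ot1, which was at 8.20 CPM on average in room-air and 15.6 CPM in hyperoxic atria; whether the counting used strand is not given in the sources used here. Kcna5, the pore of an ultrarapid current, was at 6.32, 6.92, 6.56, 6.44 and 10.1 CPM and 4.97, 3.14, 3.86, 4.89 and 2.97 CPM (log2 difference -0.87, SE 0.14, adjusted p = 3.9e-05). For Kcnq1 and Kcna5, as for Kcnh2, no hyperoxic atrium reached the lowest room-air atrium. Kcnh1, a relative of Kcnh2, fell from 1.28 ± 0.201 CPM to 0.409 ± 0.176 CPM (log2 difference -1.62, SE 0.56, adjusted p = 0.023), but it did not pass in 6 of 33 other settings. With Y-linked level and length slope as covariates the Kcnh1 difference was -0.21 (adjusted p = 0.88), with Y-linked level alone -1.10 (adjusted p = 0.27), with length slope alone -1.22 (adjusted p = 0.12), and without hyperoxic atrium 4 it was -1.39 (adjusted p = 0.057). Other Kv genes that fell were Kcna2, Kcna6, Kcnc2, Kcnc4 and Kcnd1, with room-air means of 0.0769 to 3.52 CPM and log2 differences of -2.02 to -0.49. The lowest of these, Kcnc4, had 15 counts over all room-air atria and 3 over all hyperoxic atria. In ventricles Kcnc4 was at 0.744 CPM on average in room air and 0.718 CPM in hyperoxia.

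Of the pore genes of the fast transient outward current, Kcnd2 did not pass and Kcnd3 did. Kcnd2 was at 5.13, 3.93, 4.92, 4.32 and 4.62 CPM in room-air and 4.02, 4.67, 4.45, 3.48 and 5.82 CPM in hyperoxic atria, with overlapping libraries (log2 difference -0.03, SE 0.19, adjusted p = 0.92). Kcnd3 was at 2.21, 3.53, 2.63, 2.09 and 2.89 CPM and 2.14, 1.25, 1.26, 1.28 and 2.14 CPM (log2 difference -0.73, SE 0.28, adjusted p = 0.037), but it did not pass in 14 of 33 other settings, among them the leaving out of any of 6 atrial libraries: hyperoxic 2, 3 or 4 and room-air 2, 3 or 5. Kcna4, the pore of the slow transient outward current, was at 7.17, 8.05, 7.87, 7.42 and 9.04 CPM and 5.74, 5.1, 6.58, 5.21 and 6.56 CPM, without overlap (log2 difference -0.44, SE 0.15, adjusted p = 0.024), but it did not pass in 9 of 33 other settings. Kcnip2, the accessory subunit of Kcnd channels, was at 5.58, 3.23, 3.78, 3.15 and 7.86 CPM and 4.77, 9.09, 7.22, 5.75 and 6.82 CPM and did not pass (log2 difference 0.52, SE 0.22, adjusted p = 0.059), though it passed, higher in hyperoxia, in 10 of 33 other settings, among them DESeq2 (adjusted p = 0.03), Y-linked level as a covariate (0.77, adjusted p = 0.027) and the leaving out of room-air atrium 5 (0.78, adjusted p = 0.0037).

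Among leak channels Kcnk3 (chr5:30588170-30625271, plus strand), an acid-sensitive background channel, was at 146, 150.04, 165, 166 and 189.7 CPM in room-air atria and 93.1, 127, 113, 99.8 and 88.7 CPM in hyperoxic atria, without overlap (log2 difference -0.65, SE 0.14, adjusted p = 7.9e-04). With Y-above-Xist libraries only it did not pass (log2 difference -0.37, adjusted p = 0.28). The opposite-strand transcript Gm9899, which shares exonic bases with Kcnk3, was at 18.2 CPM on average in room-air and 6.92 CPM in hyperoxic atria. Kcnk13 fell from 2.38 ± 0.23 CPM to 0.863 ± 0.147 CPM (log2 difference -1.46, SE 0.46, adjusted p = 0.014), but it did not pass with Y-linked level as a covariate (-0.77, adjusted p = 0.35), with both covariates (-0.70, adjusted p = 0.47) or in Y-above-Xist libraries (-1.39, adjusted p = 0.065). Kcnk2, a stretch-sensitive leak channel, rose, from 2.61, 2.05, 3.05, 2.79 and 1.94 CPM to 3.38, 4.45, 3.21, 4.86 and 3.14 CPM (log2 difference 0.61, SE 0.19, adjusted p = 0.014). Its highest values were in hyperoxic atria 2 and 4, the libraries that leaned towards short transcripts, and without the 3 libraries of lowest slope it did not pass (0.38, adjusted p = 0.1). With length slope as a covariate the Kcnk2 difference was 0.26 (adjusted p = 0.26), with Y-linked level 0.53 (adjusted p = 0.098) and with both 0.04 (adjusted p = 0.93).

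Of the calcium-activated channels, the small-conductance gene Kcnn2 was at 16.4, 16.5, 17.7, 18.6 and 17.6 CPM in room-air and 7.7, 10.5, 7.63, 11 and 10.2 CPM in hyperoxic atria, without overlap (log2 difference -0.89, SE 0.12, adjusted p = 3.2e-06). Kcnn4, the intermediate-conductance channel, fell from 3.35 ± 1.01 CPM to 1.5 ± 0.452 CPM (log2 difference -1.15, SE 0.34, adjusted p = 0.0085; -1.06 and adjusted p = 0.13 with both covariates), and Kcnn3 (-0.82, adjusted p = 0.0062) and Kcnt2 (-1.03, adjusted p = 2.4e-04) were the other members of the class that fell. Kcnma1, the large-conductance channel, was low at 0.529 ± 0.137 and 0.636 ± 0.382 CPM and did not pass (log2 difference 0.28, SE 0.52, adjusted p = 0.69).

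Most silent modifiers fell: Kcnf1 fell from 5.16, 6.22, 6.23, 6.15 and 3.75 CPM to 2.28, 1.67, 3.91, 1.66 and 2.4 CPM (log2 difference -1.20, SE 0.34, adjusted p = 0.0073), as did Kcng1 (-1.90), Kcng2 (-0.47), Kcng4 (-2.71) and Kcnv2 (-1.80), while Kcns3 rose from 0.397, 0.353, 0.26, 0.44 and 0.347 CPM to 0.944, 0.453, 1.04, 1.57 and 1.14 CPM (log2 difference 1.51, SE 0.39, adjusted p = 0.0036). Kcng1 and Kcng4 were low, at 0.861 and 0.498 CPM on average in room-air atria and 0.222 and 0.0773 CPM in hyperoxic atria. For Kcng2 the groups overlapped, with hyperoxic atrium 2 at 57.2 CPM and room-air atrium 3 at 55.1 CPM. The Kcnf1 fall did not pass with Y-linked level as a covariate (-1.09, adjusted p = 0.17) or with both covariates (-0.60, adjusted p = 0.46). The Kcns3 rise did not pass with Y-linked level (1.05, adjusted p = 0.16), with both covariates (0.89, adjusted p = 0.35) or in Y-above-Xist libraries (0.33, adjusted p = 0.72). Of the 11 accessory genes 1 rose and 1 fell. Kcne1 was at 12.4, 3.56, 2.11, 2.56 and 4.01 CPM in room-air and 9.34, 21.9, 11.5, 17.2 and 10.8 CPM in hyperoxic atria (log2 difference 1.53, SE 0.34, adjusted p = 0.0011). Room-air atrium 1, which carried the most Myl2, was the one that overlapped, and without it the rise in Kcne1 was larger, at 2.21 (SE 0.24, adjusted p = 4.0e-07). With both covariates Kcne1 did not pass (1.08, adjusted p = 0.12). Its highest atrial values were in hyperoxic atria 2 and 4, the libraries that leaned towards short transcripts. Kcnip1 fell from 2.23 ± 0.387 CPM to 0.971 ± 0.352 CPM (log2 difference -1.19, SE 0.44, adjusted p = 0.031), but it did not pass in 8 of 33 other settings, among them length slope as a covariate (-0.82, adjusted p = 0.15) and the leaving out of hyperoxic atrium 2 or 4 or room-air atrium 1, 2 or 4. The 24 subunit genes that did not pass in atria had log2 differences from -0.70 for Kcnb2 to 0.52 for Kcnip2.

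**Figure D2:**
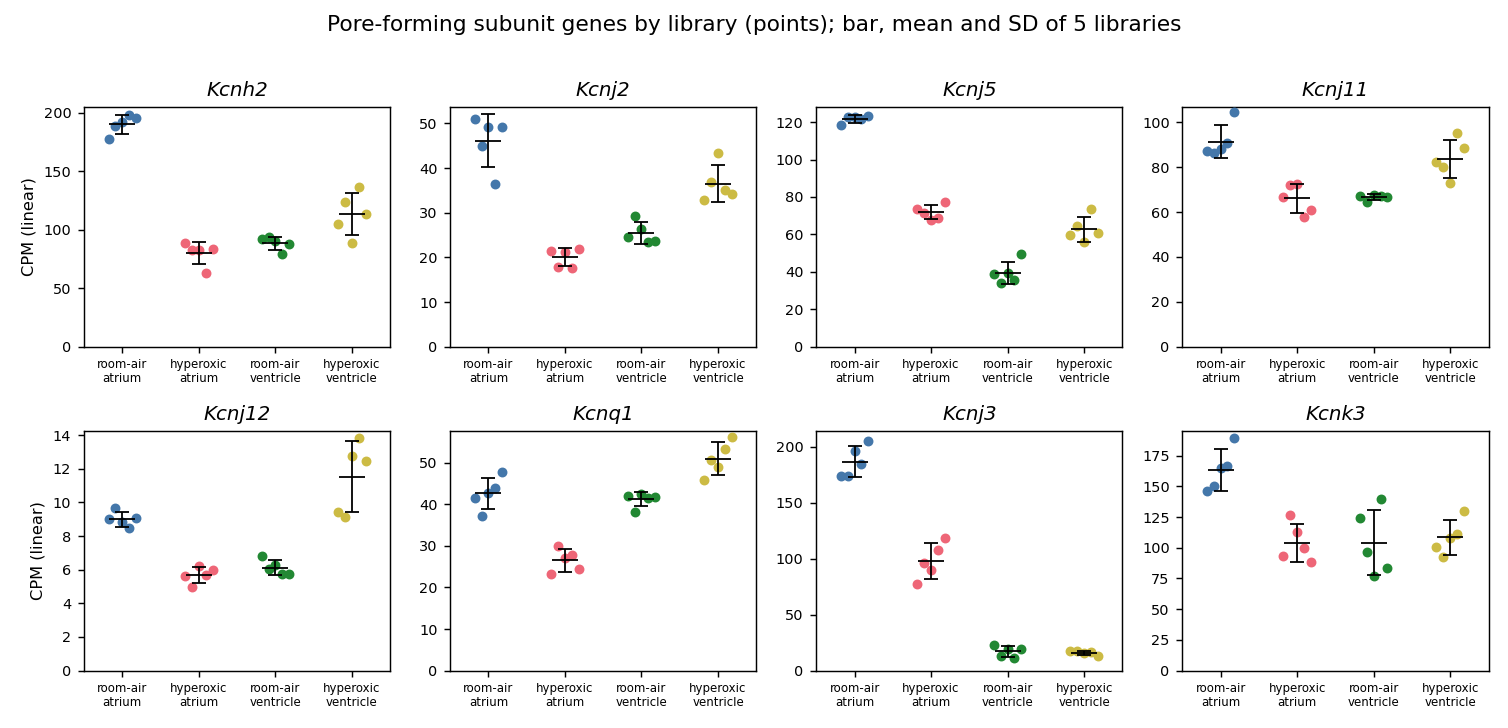
CPM (vertical axes, linear from 0) of 8 pore-forming subunit genes in each library of the 4 groups, with points for libraries and bars for mean ± SD of 5. In every panel all hyperoxic atria lie below all room-air atria, and for Kcnj2, Kcnj5, Kcnj12, Kcnq1 and Kcnj11 all hyperoxic ventricles lie above all room-air ventricles.

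In left ventricles fewer subunit genes passed, and most of those were higher in hyperoxia. Of the 59 genes 8 rose and 2 fell (edgeR, adjusted p under 0.05), 16.9% in all, where 10.9% of all genes passed, 5.64% higher and 5.28% lower. The median log2 difference of the 59 was -0.05, against -0.01 over all genes. For 7 of the 10 the groups did not overlap, as for 1234 of the 1813 genes that passed among all genes. These 1234 are 7.43% of all genes tested. The 8 that rose were Kcnj2, Kcnj12, Kcnj5 and Kcnj11 among 10 inward rectifiers, Kcnh2, Kcnq1 and Kcnd3 among 19 Kv genes, and Kcnk5 among 6 leak channels. The 6 silent modifiers, none of which passed, had a median log2 difference of -1.14, against -1.50 in atria. Of these, Kcnf1, Kcng1 and Kcng4 were under 1 CPM on average in ventricles. With Y-linked level as a covariate 3 rose and none fell, and without hyperoxic ventricle 5 the count was 5, all higher.

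Kcnj5 was at 39, 34.1, 39.3, 35.4 and 49.4 CPM in room-air ventricles and 59.7, 64.4, 55.8, 73.4 and 60.9 CPM in hyperoxic ventricles (log2 difference 0.67, SE 0.09, adjusted p = 1.5e-04). Kcnj12 was at 6.79, 6.04, 6.28, 5.75 and 5.71 CPM and 9.44, 9.13, 12.8, 13.8 and 12.5 CPM (log2 difference 0.91, SE 0.12, adjusted p = 1.1e-04). Neither gene's groups overlapped, and both passed in all 33 other settings. Kcnj2 was at 24.7, 29.2, 26.3, 23.4 and 23.7 CPM and 32.8, 36.9, 43.5, 35 and 34.3 CPM, without overlap (log2 difference 0.52, SE 0.10, adjusted p = 0.0043), and did not pass with the Y-linked or the Myl7 covariate or with Y-above-Xist libraries only. Kcnj11 was at 67.4, 64.6, 67.6, 67 and 66.8 CPM and 82.5, 80.1, 72.9, 95.3 and 88.3 CPM (log2 difference 0.33, SE 0.08, adjusted p = 0.016), again without overlap.

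Kcnh2 was at 92, 93.6, 90.4, 79.4 and 87.8 CPM in room-air and 105, 124, 89.1, 137 and 113 CPM in hyperoxic ventricles, with hyperoxic ventricle 4 inside the room-air range (log2 difference 0.36, SE 0.10, adjusted p = 0.028), and it did not pass in 8 of 33 other settings. Kcnq1 was at 42, 38.3, 42.4, 41.6 and 41.7 CPM and 45.8, 50.6, 48.9, 53.4 and 56.1 CPM (log2 difference 0.31, SE 0.08, adjusted p = 0.025). Kcnd3 was at 1.13, 0.873, 1.23, 1.4 and 1.22 CPM and 2.27, 3.02, 4.07, 1.14 and 1.76 CPM (log2 difference 1.06, SE 0.29, adjusted p = 0.025), with hyperoxic ventricle 4 highest, and without that library it did not pass (log2 difference 0.80, adjusted p = 0.077). The Kcnd3 rise was lost in 8 of 33 other settings, among them Y-linked level (0.97, adjusted p = 0.16) or length slope (0.83, adjusted p = 0.079) as a covariate and the leaving out of room-air ventricle 1 or 2. For Kcnd3, hyperoxic ventricle 5 lay inside the room-air range, while for Kcnq1 all hyperoxic ventricles were above all room-air ventricles. Kcnk5, an alkaline-activated leak channel, was at 0.703, 0.531, 0.864, 0.452 and 0.965 CPM and 1.4, 1.35, 3.37, 1.3 and 1.28 CPM (log2 difference 1.29, SE 0.32, adjusted p = 0.015), and without hyperoxic ventricle 4, its highest library, the difference was 0.91 (adjusted p = 0.046). Kcnk5 did not pass with Y-linked level (0.91, adjusted p = 0.21), both covariates (0.70, adjusted p = 0.16) or Myl7 (1.13, adjusted p = 0.27) in the model, or in Y-above-Xist libraries (0.89, adjusted p = 0.12).

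The 2 genes that fell in hyperoxic ventricles were Kcna5, from 47.5, 49.95, 44.1, 49.2 and 50.2 CPM to 36.5, 36.5, 34.2, 32.9 and 31.3 CPM without overlap (log2 difference -0.49, SE 0.13, adjusted p = 0.022), and Kcnmb4, an accessory subunit of large-conductance channels, from 2.68 ± 0.39 CPM to 1.34 ± 0.606 CPM (log2 difference -0.99, SE 0.27, adjusted p = 0.024). Of 33 other settings Kcnmb4 did not pass in 9, Kcnq1 in 7, Kcna5 in 5 and Kcnj11 in 3. The ventricle-enriched accessory genes Kcne1 and Kcnip2 did not pass, and their groups overlapped. Kcne1 was at 219 to 349.8 CPM in room-air and 235 to 296 CPM in hyperoxic ventricles (log2 difference -0.11, SE 0.31, adjusted p = 0.83), and Kcnip2 at 52.1 to 78.5 and 62.6 to 105 CPM (log2 difference 0.31, SE 0.20, adjusted p = 0.31). Kcnj3 and Kcnk3, which fell in atria, did not pass in ventricles, with log2 differences of -0.09 (adjusted p = 0.7) and 0.06 (adjusted p = 0.81).

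The test of the difference between the atrial and the ventricular response passed for 25 of the 59 genes, 21 with the lower response in the atrium and 4 with the higher one. Over all genes 36.5% passed, 19.5% lower and 17% higher, and the median of the 59 was -0.38 against -0.06. Of the 10 inward rectifiers 7 had the lower response in the atrium, as did 5 of 7 calcium- or sodium-activated channels, 6 of 19 Kv genes and 3 of 6 leak channels. Kcnd3, Kcnh2, Kcnj2, Kcnj5, Kcnj11, Kcnj12 and Kcnq1 fell in the atrium, rose in the ventricle and passed the test of the difference, 7 of 59 or 11.9%, where 0.928% of all genes did. For Kcnd3 the atrial call was lost in 14 and the ventricular call in 8 of 33 other settings. The ventricular call was also lost in 8 of 33 for Kcnh2, 7 for Kcnq1 and 3 each for Kcnj2 and Kcnj11. For Kcnj5 and Kcnj12 both calls held in every setting. With Y-linked level as a covariate the ventricular rises of Kcnd3, Kcnh2, Kcnj2 and Kcnq1 did not pass. For Kcnj2 the difference of responses was -1.72 (SE 0.15, adjusted p = 5.7e-08), for Kcnh2 -1.61 (adjusted p = 1.1e-07) and for Kcnj5 -1.43 (adjusted p = 1.0e-07). Kcnj3, the partner of Kcnj5, also differed, at -0.84 (adjusted p = 0.0037). The genes with the higher response in the atrium were Kcns3 at 2.02 (adjusted p = 0.02), Kcne1 at 1.64 (adjusted p = 0.0095), Kcnk2 at 0.99 (adjusted p = 0.0067) and Kcne4, another accessory subunit, at 0.63 (adjusted p = 0.034). The difference for Kcne1 did not pass without the 3 libraries of lowest length slope (1.13, adjusted p = 0.14), and that for Kcnk2 did not either (0.60, adjusted p = 0.066). With length slope as a covariate the difference was 0.72 for Kcne1 (edgeR adjusted p = 0.43) and 0.35 for Kcnk2 (adjusted p = 0.44). The Kcns3 difference was lost in 7 of 32 other settings and was 0.59 (adjusted p = 0.64) in Y-above-Xist libraries, and the Kcne4 difference was lost in 10 of 33. With length slope as a covariate the count was 14, of which 13 lower.

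**Figure D3:**
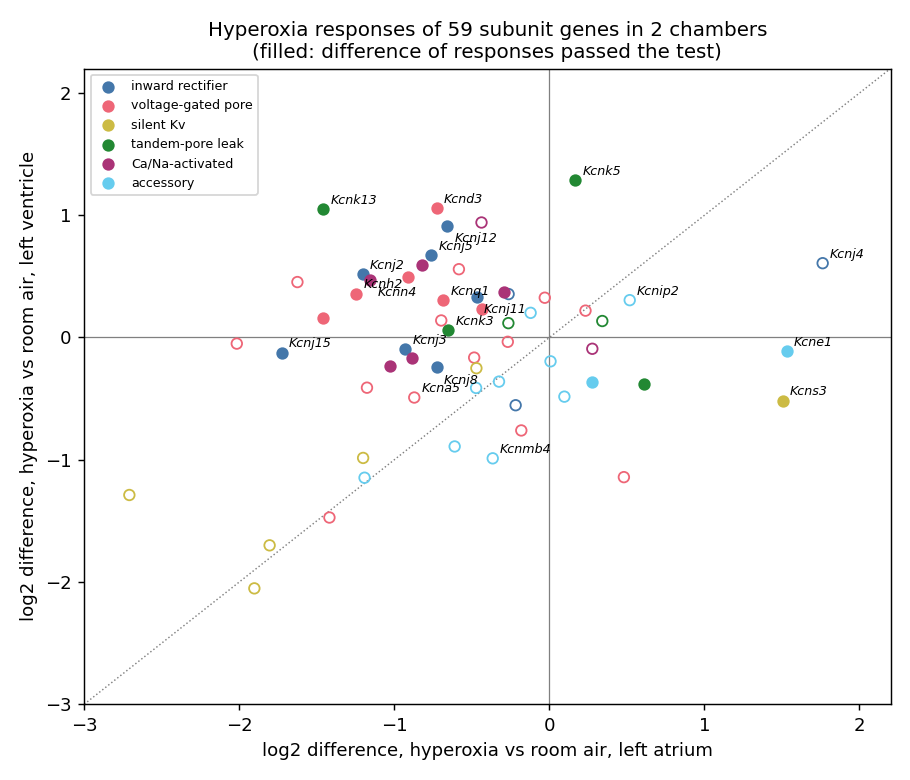
Log2 difference between hyperoxia and room air in the left atrium (horizontal axis) and in the left ventricle (vertical axis) for the 59 filtered subunit genes, coloured by class, with filled points where the test of the difference of responses passed and a dotted line where both responses are equal. Most points lie left of 0, and Kcnj2, Kcnj5, Kcnj12, Kcnj11, Kcnh2, Kcnq1 and Kcnd3 lie left of 0 and above it.

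Between chambers in room air, 32 of the 59 genes were higher in the atrium and 16 in the ventricle (edgeR, adjusted p under 0.05), 81.4% in all, where 55% of all genes passed, 28.7% higher and 26.3% lower in the atrium. For 41 of the 48 the chambers did not overlap, as for 7433 of the 9122 genes that passed among all genes. These 7433 are 44.8% of all genes tested. Atrial excess was the rule among calcium- or sodium-activated channels (6 of 7), inward rectifiers (6 of 10), leak channels (4 of 6) and Kv genes (10 of 19), whereas 7 of 11 accessory genes were higher in the ventricle. Kcnh7, a relative of Kcnh2, was at 21.3 to 30.2 CPM in room-air atria and at 0 to 0.234 CPM in room-air ventricles (log2 difference 7.86, SE 0.37, adjusted p = 1.3e-13). Gca, which shares exonic bases with Kcnh7 on the other strand, was at 20.2 CPM on average in room-air atria and 23.9 CPM in room-air ventricles. The silent modifier Kcnf1 (log2 difference 5.10, adjusted p = 5.4e-09), the accessory Kcnip1 (4.48, adjusted p = 9.0e-07), Kcnj15 (4.25, adjusted p = 9.6e-12) and the leak channel Kcnk1 (3.02, adjusted p = 2.9e-07) were also higher in the atrium. Kcnj3 was 10.9-fold higher in the atrium and Kcnj5 3.09-fold.

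On the ventricular side Kcne1 was at 219 to 349.8 CPM in room-air ventricles and 2.11 to 12.4 CPM in room-air atria (log2 difference -5.82, SE 0.39, adjusted p = 6.7e-11), or -6.50 without room-air atrium 1. Kcnip2 (chr19:45791839-45816061, minus strand) was 14.3-fold higher in the ventricle (log2 difference -3.84, SE 0.23, adjusted p = 4.7e-12), Kcna5 6.64-fold (log2 difference -2.73, SE 0.14, adjusted p = 4.6e-13) and Kcnj8 5.73-fold (log2 difference -2.52, SE 0.12, adjusted p = 2.4e-13). Kcnk2 (-2.08, adjusted p = 8.3e-09) and Kcnab1, a cytoplasmic Kv beta subunit (-1.81, adjusted p = 1.6e-05), were lower in the atrium too. Kcnq1 did not pass (log2 difference 0.05, adjusted p = 0.65), nor did Kcnd2 (0.44, adjusted p = 0.058). However, Kcnd2 passed, higher in the atrium, in 5 of 34 other settings. Among them was a fit of only the libraries compared (0.41, edgeR adjusted p = 0.039).

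**Figure D4:**
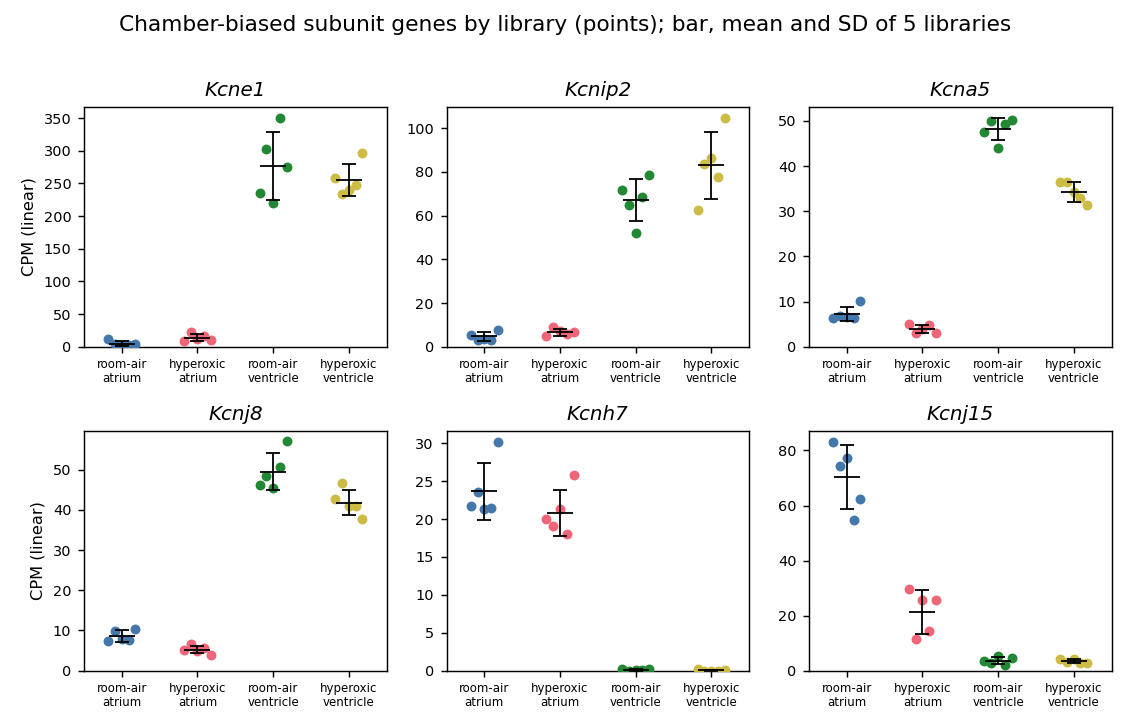
CPM (vertical axes, linear from 0) of 6 subunit genes that differed between chambers, in each library of the 4 groups, with points for libraries and bars for mean ± SD of 5. Kcne1, Kcnip2, Kcna5 and Kcnj8 are higher in every ventricle than in any atrium, and Kcnh7 and Kcnj15 are higher in every atrium than in any ventricle.

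In hyperoxia the balance between chambers was different: 16 of the 59 genes were higher in the atrium and 21 in the ventricle, 62.7% in all, where 48.8% of all genes passed, 25.2% higher and 23.6% lower in the atrium. For 26 of the 37 the chambers did not overlap, as for 5396 of the 8098 genes that passed among all genes. These 5396 are 32.5% of all genes tested. Kcnh2, Kcnj2, Kcnj11, Kcnj12 and Kcnn2 were higher in the atrium in room air and higher in the ventricle in hyperoxia, 5 of 59 or 8.47%, where 1.86% of all genes were. Kcnh2 went from 1.10 (adjusted p = 6.4e-09) to -0.50 (adjusted p = 2.6e-04) on the log2 scale, and Kcnj2 from 0.86 (adjusted p = 4.0e-07) to -0.86 (adjusted p = 3.9e-07). For Kcnn2 the room-air difference of 0.29 (adjusted p = 0.042) was lost in 15 of 34 settings, and in hyperoxia neither Kcnn2 nor Kcnj11 passed with Y-above-Xist libraries only. Kcnj5, 3.09-fold higher in room-air atria, did not pass in hyperoxia (log2 difference 0.19, adjusted p = 0.082), but passed, higher in the atrium, in 7 of 34 other settings, among them DESeq2 (0.22, adjusted p = 0.033) and length slope as a covariate (0.25, adjusted p = 0.018). Kcnj3 was still 6.09-fold higher in the atrium. The largest chamber differences stayed on their side: Kcnh7 at 8.44 (adjusted p = 8.7e-14) and Kcnf1 at 4.88 (adjusted p = 5.3e-08) towards the atrium, Kcne1 at -4.18 (adjusted p = 3.5e-09) and Kcnip2 at -3.62 (adjusted p = 9.2e-12) towards the ventricle. Kcnh3 and Kcns3, both low, were higher in the atrium at 2.84 and 3.0 (edgeR adjusted p = 3.8e-05 and 9.3e-06). Mcrs1, which shares exonic bases with Kcnh3 on the other strand, was at 57.3 CPM on average in hyperoxic atria and 66.3 CPM in hyperoxic ventricles. Kcnma1 was higher in the atrium in both oxygen levels, at 2.40 and 2.77. With Y-above-Xist libraries only, where hyperoxic atrium 2 alone stood for its group, the hyperoxic difference was -0.15 for Kcnma1 and 1.57 for Kcns3.

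Proteins that work with these channels but carry other names were read from lists. For their atrial counts the share of all genes called is again 43.9%, with 24.2% lower. Of 10 channel-associated proteins 7 passed the filter, and 4 fell in hyperoxic atria: Abcc9, the sulfonylurea receptor of Kcnj11 and Kcnj8 channels (log2 difference -0.88, SE 0.14, adjusted p = 2.3e-05), Dpp6, an accessory protein of Kcnd channels (-2.56, adjusted p = 0.0013), and Lrrc38 and Lrrc55, gamma subunits of large-conductance channels (-2.60 and -2.67, adjusted p = 3.4e-05 and 9.3e-08). Abcc8, the other sulfonylurea receptor, did not pass (-0.17, adjusted p = 0.19). In ventricles Amigo1, an adhesion protein that binds Kv channels, rose (0.48, edgeR adjusted p = 0.0036), and the other 6 did not pass. Of all genes 10.9% passed in ventricles, 5.64% higher. The median log2 difference of the 7 was -0.88 in the atrium and -0.04 in the ventricle.

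Of 10 genes that feed the acetylcholine-activated channel, 5 fell and 1 rose in hyperoxic atria. The muscarinic receptor gene Chrm2 fell from 139 ± 14.1 to 62.9 ± 19.3 CPM (log2 difference -1.14, SE 0.17, adjusted p = 1.6e-05), and Gnao1 (-0.98, adjusted p = 2.2e-05) and Gnai2 (-0.44, adjusted p = 4.6e-04), G protein alpha subunits, and the regulators Rgs4 (-0.97, adjusted p = 6.7e-06) and Rgs6 (-0.56, adjusted p = 8.1e-04) fell too. The adenosine receptor gene Adora1 rose (0.57, adjusted p = 0.0037). Of 7 scaffold and surface regulator genes Ank2 (-0.69), Sgk1 (-0.66) and Nedd4l (-0.61) fell, 1 rose and 3 did not pass. Of all genes 24.2% fell and 19.7% rose. Of 10 transcription factors linked to cardiac potassium channel genes 6 fell in hyperoxic atria, among them Tbx5 (-1.12, adjusted p = 9.9e-07) and Etv1 (-1.09, adjusted p = 8.5e-07), and none rose. In hyperoxic ventricles 1 of these 10 rose, 1 fell and 8 did not pass, where 5.64% of all genes rose and 5.28% fell. Hey2 rose there (0.98, edgeR adjusted p = 6.1e-04).

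Markers of cell types moved in the same atrial libraries, where 24.2% of all genes fell and 19.7% rose. Fibroblast markers fell in 4 of 5 and rose in 1 (2940 to 3664 against 1507 to 2099 CPM), and endothelial markers fell in 5 of 6 and rose in 1 (767 to 902 against 567 to 723 CPM). Macrophage markers rose in 3 of 5 (123 to 138 against 159 to 217 CPM), and smooth muscle markers fell in 2 and rose in 2 of 5 (488 to 703 against 764 to 1173 CPM). Atrial myocyte markers fell in 1 and rose in 1 of 5, and their summed level overlapped, at 11872 to 15313 against 9798 to 23034 CPM. Ventricular myocyte markers fell in 3 of 5, and their summed level also overlapped, at 516 to 944 against 413 to 825 CPM. The part of these cell types in the subunit results was not tested. In ventricles the atrial marker Myl7 ran from 19.5 to 530 CPM in room air and 2.66 to 128 CPM in hyperoxia, and with Myl7 as a covariate 2 subunit genes passed there, both higher.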

How the data were processed

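The authors deposited raw counts per gene symbol for each of 20 libraries, made from stranded poly(A) RNA libraries per the labels' protocols. The submitters' processing notes name fastp 0.20.1, STAR 2.7.6a, Subread 2.0.1 with featureCounts, Salmon 1.3.0 and build GRCm38.p6; the strand setting is not given in the sources used here. The labels and the series text name different RNA extraction kits.

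Counts were tested with edgeR 4.0.16 (R 4.3.3) by the quasi-likelihood test with robust dispersions, TMM scaling, filterByExpr over 4 groups (16598 genes kept) and Benjamini-Hochberg adjustment over all of them, all 20 libraries in one fit. DESeq2 1.42.0 was an alternative. The script was tested on simulated data. Exon lengths came from GENCODE M21. Of the 59 filtered subunit genes 19 share exonic bases with an opposite-strand gene.

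Always named were 19 cardiac core genes, and in each comparison up to 6 of the highest and 6 of the lowest called genes with at least 1 CPM. Members and lists were chosen with earlier results of these data known. A few genes of the lists and members are not reported here.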

Additional observations from a re-analysis of the deposited data

Results flagged for a closer look

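Among the 34 named subunit genes, 136 sets of 5 libraries were checked for a library that stood apart from the rest of its group, and 15 did so, where chance gives about 5% of sets. Room-air atrium 5 was the highest of its group for Kcna5 at 10.1 CPM (next 6.92), Kcnh7 at 30.2 CPM (next 23.5), Kcnj11 at 105 CPM (next 90.6) and Kcnn4 at 5.14 CPM (next 3.0). Hyperoxic ventricle 4 was the highest of its group for Kcnd2 at 6.49 CPM (next 4.25) and Kcnk5 at 3.37 CPM (next 1.4). Room-air atrium 1 was the highest of its group for Kcne1 at 12.4 CPM (next 4.01) and Kcnma1 at 0.765 CPM (next 0.52). Hyperoxic atrium 4 was the lowest of its group for Kcnh1 at 0.0958 CPM (next 0.453) and Kcnh2 at 63.2 CPM (next 82.6). Room-air atrium 1 was the lowest of its group for Kcnh3 at 0.709 CPM (next 1.1). Hyperoxic ventricle 1 was the highest of its group for Kcnh7 at 0.209 CPM (next 0.0366). Room-air ventricle 2 was the lowest of its group for Kcnj11 at 64.6 CPM (next 66.8) and Kcnq1 at 38.3 CPM (next 41.6). Hyperoxic ventricle 4 was the lowest of its group for Kcns3 at 0 CPM (next 0.13). Room-air atrium 5 was the library concerned for 4 genes, all high, and room-air atrium 1, which carried more Myl2 than the other atria, for 3.

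The atrial and ventricular hyperoxia responses differed by the edgeR test of the difference itself for 21 of the named genes, of which 20 are given. The atrial response was the lower one, on the log2 scale, for Kcnk13 -2.51, Kcnd3 -1.78, Kcnj2 -1.72, Kcnn4 -1.62, Kcnh2 -1.61, Kcnj15 -1.60, Kcnj12 -1.57, Kcnj5 -1.43, Kcnk5 -1.12, Kcnq1 -0.99, Kcnj3 -0.84, Kcnj11 -0.80, Kcnn2 -0.72, Kcnk3 -0.71, Kcna4 -0.67 and Kcnj8 -0.48. It was the higher one for Kcne4 0.63, Kcnk2 0.99, Kcne1 1.64 and Kcns3 2.02. The Kcnk5 difference was lost in 17 of 33 other settings: it was -0.21 with length slope as a covariate (edgeR adjusted p = 0.78) and -0.75 without hyperoxic ventricle 4 (adjusted p = 0.095). The differences for Kcne4 and Kcnj8 were lost in 10 and 9 of 33, and that for Kcns3 in 7 of 32.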

How the results depend on the processing

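Apart from the fits without a single library, counts of subunit genes past the edgeR threshold moved by more than 1.5 times under these settings. In atria, Y-linked and length slope covariates together (added after seeing the data) gave 21 in place of 35. In ventricles, the Y-linked covariate gave 3, the Myl7 covariate 2 and Y-above-Xist libraries only 3, in place of 10. For the difference of responses, the length slope covariate gave 14, alone or with the Y-linked covariate, in place of 25. Leaving out each library in turn gave 30 to 36 for hyperoxia in atria, 5 to 12 in ventricles, 21 to 26 for the difference, 42 to 52 between chambers in room air and 35 to 39 in hyperoxia. The ventricular count of 5, without hyperoxic ventricle 5, also moved by more than 1.5 times. Sign changes were checked for the 34 named genes, and among these the only one of a called gene was Kcnma1 between chambers in hyperoxia (-0.15, SE 1.32). It arose in Y-above-Xist libraries, where hyperoxic atrium 2 alone stood for its group. Of the called named genes, 12 of 24 in atria, 2 of 10 in ventricles, 9 of 21 for the difference, 27 of 30 between chambers in room air and 18 of 24 in hyperoxia passed in every setting run.

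Whether an atrium and a ventricle of the same number came from 1 mouse is not in the labels, and the main tests took all libraries as separate. Deviations from the group mean of such atria and ventricles correlated at -0.054 to 0.575 within an oxygen level. Between oxygen levels, where the same number means different mice, correlations ran from -0.335 to 0.647. These values therefore cannot settle whether the numbers are pairs. With the replicate block the counts were 34 in atria, 13 in ventricles, 26 for the difference, 47 between chambers in room air and 38 in hyperoxia. With the replicate number within oxygen as block the last 3 were 22, 46 and 36.

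Without division by exon length, shares of the summed level moved by more than 1 SD to these values: calcium- or sodium-activated channels 4.48% in room-air atria, 4.21% in hyperoxic atria, 3.1% in room-air ventricles and 3.27% in hyperoxic ventricles, and leak channels 15.5% in room-air atria and 17.8% in hyperoxic atria, and inward rectifiers 44.8% in room-air atria, and Kv genes 26.8% in room-air atria, 23.7% in hyperoxic atria, 21.7% in room-air ventricles and 22.9% in hyperoxic ventricles, and accessory genes 2.86% in room-air atria, 6.34% in hyperoxic atria, 34.2% in room-air ventricles and 31.7% in hyperoxic ventricles, and silent modifiers 5.57% in room-air atria, 6.58% in hyperoxic atria, 9.84% in room-air ventricles and 7.83% in hyperoxic ventricles. For genes under 1 CPM depth limits what can be seen.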
